A study of Mus musculus with 4 samples.

Results

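The genes described here are Trp53, which encodes the transcription factor p53, and 9 genes of the p53 pathway (Mdm2, Mdm4, Cdkn1a, Ccng1, Sesn2, Bbc3, Pmaip1, Bax and Gadd45a). These 10 members, out of 21090 genes in the table, were named from textbook knowledge of the pathway, with earlier results of these data known. RNA sequencing (RNA-seq) measured them in 4 mouse mammary tumor cell lines, with 1 library per line. Controls were the unedited parental line and a line with the vector alone, the vector control (n = 2). Knockouts were 2 lines edited in exon 3 or in exon 2 of S100a4, which encodes a calcium-binding protein of the S100 family (n = 2, named by the exon). The comparison asks how gene expression differed between lines with and without S100a4 editing.

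By the study's methods all lines share 1 starting line and its tumor alleles, which was not checked in reads here. The starting line was derived from a mammary tumor that had spread to the lung, in a mouse of C57BL/6 background bearing Pik3ca H1047R and Trp53 R270H, both switched on by Cre recombinase under the MMTV promoter, which is active in mammary epithelium. By this account the controls carried mutant Trp53 as well, and no line with intact p53 was included. Edited lines were made with a lentivirus for Cas9 and a guide RNA and selected on puromycin, and the methods describe no cloning step. The parental line received no virus. In the titles, 3 lines are called 307 and the exon 2 knockout is called 308, although the study describes a single starting line, so a difference of that knockout cannot be told apart from a difference of its starting cells. Since nothing marks repeat cultures of a line, the p-values measure only the spread between these 4 libraries.

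p53 is held at a low level in unstressed cells by Mdm2, a ubiquitin ligase that marks it for destruction, and by Mdm4, a related protein that blocks its activity. DNA damage and other stresses release p53, which binds DNA as a tetramer and switches on genes for cell cycle arrest, repair, metabolism and death. Several of its targets, Mdm2 and Ccng1 among them, feed back on p53. Missense changes in the DNA-binding domain, which are common in breast cancer, impair target activation, and the mutant protein often accumulates.

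The R270H allele changes an arginine codon of that domain. The reference sequence around the codon is shown because the lines are described as carrying the allele. In the GRCm38 annotation (GENCODE M21), codon 270 of the Trp53 transcript encoding 390 residues lies in exon 8 at chr11:69589607-69589609 on the plus strand. The codon is in capitals in the stretch chr11:69589595-69589621.
Trp53 codon 270, reference: agctttgaggttCGTgtttgtgcctgc
Reads of the mutant allele were not analysed here, so the Trp53 values below sum over both alleles.

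The promoters of the members were searched for the p53 decamer, the 10-base unit of which a p53 response element holds a pair. The decamer was searched on both strands, with at most 1 mismatch outside its fixed core C and G, in RefSeq windows (GRCm38.p6) from 250 bases before to 50 bases after each start site. Windows were given for 9 of the 10 members, 13 windows in all, and Pmaip1 had none. A pair with at most 1 mismatch in each decamer and a spacer of 0 to 13 bases lay in 2 of 13 member windows (15.4%), against 2.71% of 32851 windows of all genes. These were Cdkn1a, whose product blocks cyclin-dependent kinases, and Ccng1, which encodes cyclin G1. They are shown with the decamers in capitals, at chr17:29090896-29090947 and chr17:29090918-29090957 (plus strand) and at chr11:40755452-40755491 (minus strand), each read on the strand of its gene.
Cdkn1a, spacer of 12: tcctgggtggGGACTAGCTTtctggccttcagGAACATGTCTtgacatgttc
Cdkn1a, spacer of 0: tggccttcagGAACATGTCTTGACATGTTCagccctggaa
Ccng1, spacer of 0: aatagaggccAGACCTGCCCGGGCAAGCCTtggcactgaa
The first Cdkn1a pair started 73 bases before the start site of its window and had no mismatch, which held for 0.0731% of all windows. Cdkn1a has a second window (chr17:29093519-29093818), which held no decamer even with 1 mismatch allowed. Both Cdkn1a pairs share 1 decamer, and the second Cdkn1a pair and the Ccng1 pair have 1 mismatch in 1 decamer.

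A decamer without mismatch lay in 6 of 13 member windows (46.2%), against 8.36% of all windows. Besides Cdkn1a and Ccng1 these were the windows of Trp53, Mdm2, Bax and Gadd45a, shown because they hold the full decamer without a partner in range. Their positions are chr11:69580274-69580303 (plus strand), chr10:117710925-117710954, chr7:45467080-45467109 and chr6:67037428-67037457 (minus strand).
Trp53: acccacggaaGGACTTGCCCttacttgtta
Mdm2: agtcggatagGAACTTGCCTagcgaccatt
Bax: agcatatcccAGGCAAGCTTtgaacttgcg
Gadd45a: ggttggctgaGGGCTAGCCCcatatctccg
With 1 mismatch allowed, 9 of 13 member windows (69.2%) held a decamer, against 50.9% of all windows. Sesn2, a stress gene with 1 window, was the only one of the 9 members without any. The windows of 1 gene can overlap, as 2 of the 3 Bbc3 windows do. A match is a run of letters, and none of these data measured binding of p53.

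**Figure D1:**
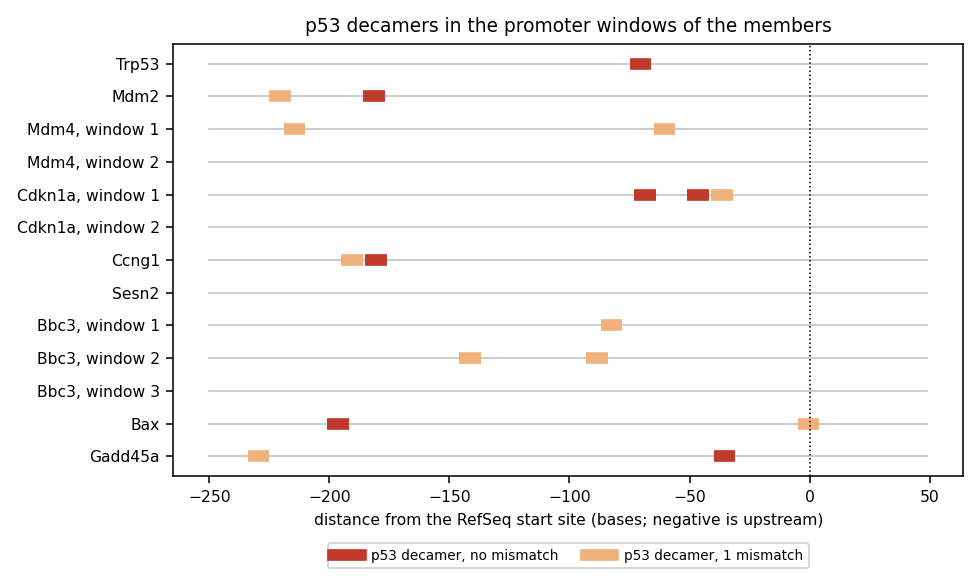
Position of p53 decamers in each promoter window of the members (x axis: bases from the RefSeq start site; 1 line per window; dark bars have no mismatch, light bars have 1). Window 1 of Cdkn1a holds 2 decamers without mismatch, starting 73 and 51 bases before its start site, and window 2 holds none.

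Levels are the RPKM that the authors deposited, which divide the reads of a gene by its length in kilobases and by the size of the library. The totals behind the RPKM columns lay between 22472024 and 31235456 reads, deepest in the parental line, and 13469 to 14214 genes were above 0. S100a4 was listed at 3576 RPKM in parental cells, 4741 with vector alone, 1136 after exon 3 editing and 1105 after exon 2 editing. Of 6 mammary epithelial markers 2 had a mean RPKM of at least 1, Krt8 and Krt18, and the summed level of the list ran from 34.3 to 129.8 RPKM. All 4 mesenchymal markers passed that level. Their sum was 6972 to 7270 RPKM in the controls and 2965 to 3190 in the knockouts, most of the difference being S100a4 itself. Without S100a4 the sum was 3694 RPKM in parental cells, 2231 with vector alone, 1830 after exon 3 editing and 2086 after exon 2 editing. Vim lay lower in both knockouts (1362 and 1721 RPKM) than in both controls (2418 and 2060). Fn1 and Col1a1 overlapped between groups. They were lowest with vector alone (164 and 6.93 RPKM) and highest in parental cells (606 and 670.3 RPKM). Leukocyte markers summed to at most 0.597 RPKM, with Cd3e and Adgre1 at 0 in every library, and endothelial markers summed to at most 0.267. The part of these markers in the results below was not tested. In these bulk libraries, fewer cells expressing a gene and less RNA per cell cannot be told apart.

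Gene positions given below are from GENCODE M21 (GRCm38). All 10 members passed the filter of a mean RPKM of at least 1, as did 10871 genes in all, and Pmaip1 was just inside it at 1.03. Ranked by mean RPKM, Bax (198) and Trp53 (126) stood highest, followed by Cdkn1a (52.7) and Gadd45a (44.0). Sesn2 (23.5), Mdm2 (23.1) and Ccng1 (22.6) came next, then Bbc3 (12), Mdm4 (5.55) and Pmaip1 (1.03). Bax lay above Trp53 in each library. Over the 4 libraries the ranges of Sesn2, Mdm2 and Ccng1 overlapped, as did those of Cdkn1a and Gadd45a, and the order within each set changed between libraries. Ccng1 lay above Bbc3 in each library, by little after exon 3 editing (16.1 against 16.0 RPKM).

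**Figure D2:**
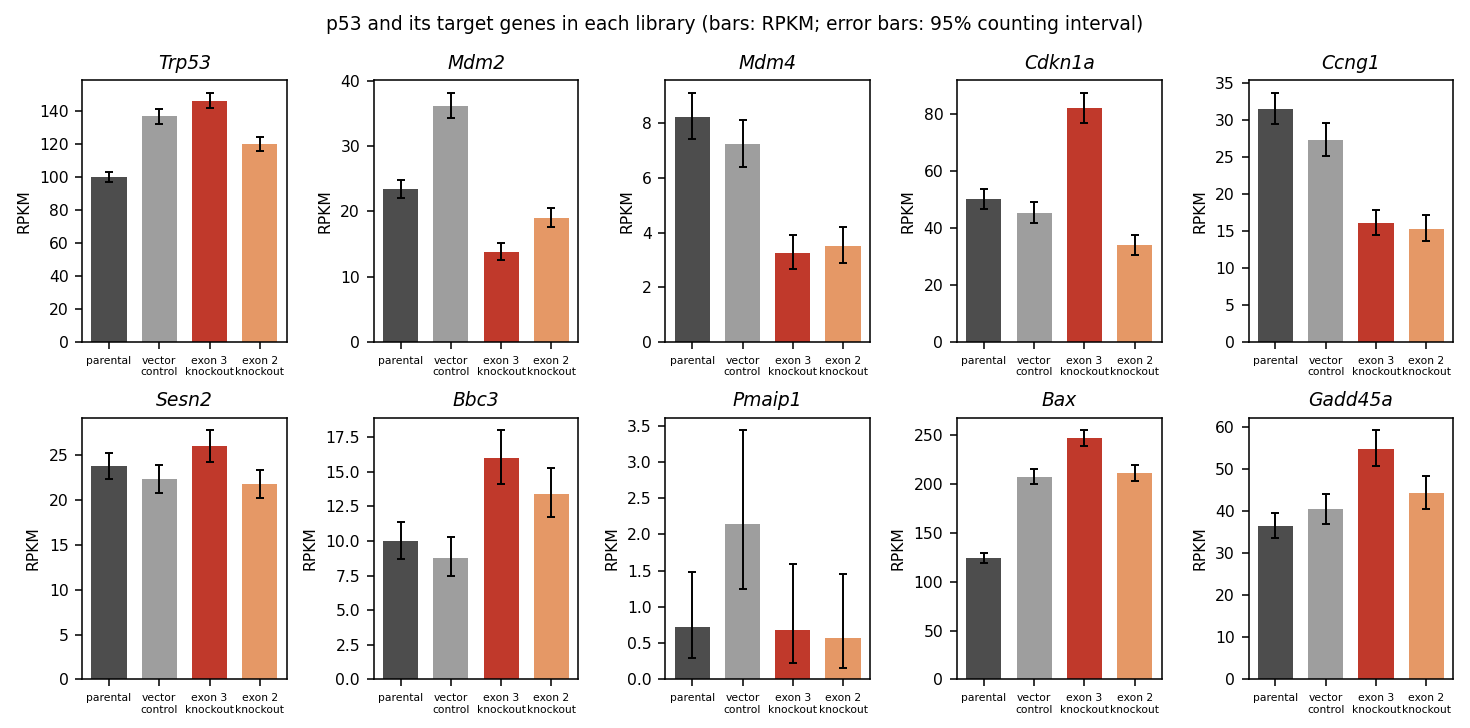
RPKM of each member (y axis, from 0, 1 panel per gene) in the 4 libraries (x axis); error bars are exact Poisson 95% intervals of the reads, which cover counting error only. Both knockouts lie below both controls for Mdm2, Mdm4, Ccng1 and Pmaip1, and above them for Bbc3, Bax and Gadd45a.

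No member passed the test between groups. By limma on log2(RPKM + 1), with Benjamini-Hochberg adjustment over all genes tested, 0 of 10 members had an adjusted p under 0.05, and limma voom on recovered reads also called 0. Over all genes the limma test called 2 genes (0.0184%). At an unadjusted p under 0.05, 3 members were lower in the knockouts (Mdm2, Mdm4 and Ccng1), where 13.8% of all genes were. At the same level 0 members were higher, where 5.32% of all genes were. Both knockouts lay below both controls for 4 members, against 31.2% of all genes, and above both for 3, against 21.9%. On RPKM + 1, the scale of the test, 0 members differed by 2-fold or more in all 4 knockout and control pairs, where 1.73% of all genes were so much lower and 0.267% so much higher. On RPKM with nothing added, a count made after seeing the data, 1 member passed that fold, Mdm4, at 2.06 to 2.54 times lower, where 3.29% of all genes were so much lower and 0.423% so much higher. The median log2 change of the members was 0.10, and that of all genes tested was -0.08. With 2 libraries against 2, the smallest p of an exact two-sided permutation test is 0.333, so no single gene can pass 0.05 in that test.

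Trp53 RNA (chr11:69580359-69591873, plus strand) was abundant in every line. It was listed at 100.1 RPKM in parental cells, 137 with vector alone, 146 after exon 3 editing and 119.8 after exon 2 editing. The parental line was lowest, the exon 3 knockout highest, and the groups overlapped. The log2 change was 0.18 (SE 0.307, limma adjusted p = 0.774). Likeness of pattern to Trp53 over the 4 libraries was taken as the root mean square difference in centred log2(RPKM + 1). Only 64 genes were compared, the other members and the tested genes of both p53 lists below. The 3 smallest differences were those of Rps27l (0.0730), Phlda3 (0.114) and the member Gadd45a (0.137). Genes outside these lists were not compared, so how many lie as close is not known.

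The inhibitors of p53 and the feedback gene Ccng1 lay lower in the knockouts. Mdm2 (chr10:117688875-117710758, minus strand) was listed at 23.4 RPKM in parental cells, 36.2 with vector alone, 13.8 after exon 3 editing and 19.0 after exon 2 editing. Both knockouts lay below both controls, though the exon 2 knockout was closer to the parental line than the controls were to each other. The log2 change was -0.81 (SE 0.339, limma unadjusted p = 0.0359, adjusted p = 0.234). Mdm4 (chr1:132959484-133030561, minus strand) was listed at 8.24 RPKM in parental cells, 7.22 with vector alone, 3.24 after exon 3 editing and 3.50 after exon 2 editing. Its mean was 7.73 ± 0.721 RPKM in the controls and 3.37 ± 0.188 in the knockouts (SD, n = 2 each), 2.29-fold higher in the controls, and the groups were well apart. The log2 change of Mdm4 was -1.0 (SE 0.337, limma unadjusted p = 0.0127, adjusted p = 0.173). The Mdm4 values rest on 379, 270, 112 and 116 reads in the same order of libraries. The study had picked Mdm4 from these libraries, so its direction is not independent evidence. Ccng1 (chr11:40748552-40755311, minus strand), which recruits a phosphatase to Mdm2, was listed at 31.5 RPKM in parental cells, 27.3 with vector alone, 16.1 after exon 3 editing and 15.3 after exon 2 editing. Within each group its lines lay close together, and both knockouts lay below both controls. The log2 change of Ccng1 was -0.86 (SE 0.305, limma unadjusted p = 0.0160, adjusted p = 0.182).

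These 3 genes had the lowest coding GC content of the members. GC content was 48.0% for Mdm2, 43.2% for Mdm4 and 43.4% for Ccng1, each below the 25th percentile of the genes tested (48.3%). Another 5 members lay above the 75th percentile (57.3%), and each had a positive log2 change. They were Cdkn1a (61.7%), Sesn2 (59.9%), Bbc3 (72.0%), Bax (59.1%) and Gadd45a (59.0%). Across 10776 genes, which are not independent replicates, the log2 change between groups had a Pearson r of 0.458 with GC content. After each library was corrected for coding GC content and length, the log2 change was -0.45 for Mdm2 (limma adjusted p = 0.490), -0.37 for Mdm4 (adjusted p = 0.603) and -0.34 for Ccng1 (adjusted p = 0.635). Each kept its direction and was smaller. The log2 changes of the 5 members of high GC content were lower after the correction. They were -0.23 for Cdkn1a, -0.15 for Sesn2, 0.48 for Bbc3, 0.18 for Bax and 0.00 for Gadd45a. The part of GC content beyond this correction was not tested.

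The ratio of Mdm2 to Mdm4, both per length, was 2.84 in parental cells, 5.01 with vector alone, 4.27 after exon 3 editing and 5.42 after exon 2 editing. The ratio of Trp53 to Mdm2 was 4.27 in parental cells, 3.77 with vector alone, 10.6 after exon 3 editing and 6.30 after exon 2 editing. The second ratio was higher in both knockouts than in both controls, while the first overlapped between groups. Both ratios use RPKM as deposited, without the GC and length correction, and neither was tested between groups.

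**Figure D3:**
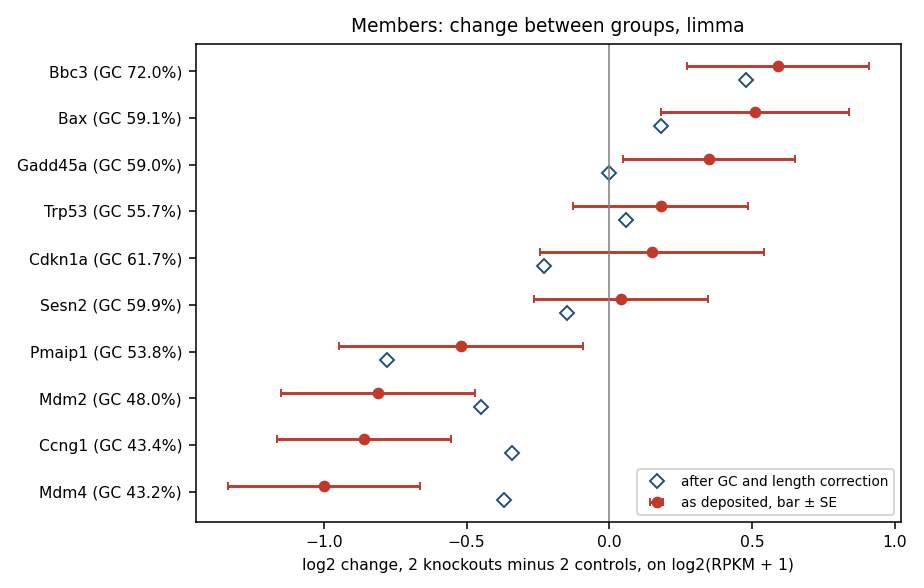
Log2 change of each member (x axis, knockouts minus controls on log2(RPKM + 1); 2 libraries per group), as deposited with its limma SE (circles) and after GC and length correction (diamonds); the y axis gives coding GC content. Mdm4 is lowest at -1.0 before and -0.37 after the correction, and Bbc3 is highest at 0.59 and 0.48.

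The arrest genes lay higher in the exon 3 knockout. Cdkn1a (chr17:29090976-29100727, plus strand), which encodes the cyclin-dependent kinase inhibitor p21, was listed at 50 RPKM in parental cells, 45.2 with vector alone, 81.8 after exon 3 editing and 33.8 after exon 2 editing. The knockouts lay on opposite sides of both controls and differed from each other 2.42-fold, more than the controls did. The group log2 change, 0.15 (SE 0.393, limma adjusted p = 0.862), averages over that split, and it was -0.48 without the exon 3 knockout and 0.77 without the exon 2 knockout. Gadd45a (chr6:67035096-67037457, minus strand), which encodes a stress protein of growth arrest and DNA repair, was listed at 36.5 RPKM in parental cells, 40.4 with vector alone, 54.8 after exon 3 editing and 44.2 after exon 2 editing. Both knockouts lay above both controls. The counting intervals of the exon 2 knockout (40.4 to 48.3 RPKM) and the vector control (37.0 to 44.1) overlapped. The log2 change of Gadd45a was 0.35 (SE 0.301, limma adjusted p = 0.537) and 0.00 after GC and length correction.

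Sesn2 (chr4:132492032-132510501, minus strand) encodes a stress-induced inhibitor of mTORC1 signalling and was nearly level. It was listed at 23.8 RPKM in parental cells, 22.3 with vector alone, 26.0 after exon 3 editing and 21.8 after exon 2 editing. The knockouts again lay on opposite sides of both controls, as 7.88% of all genes did. The counting interval of the exon 2 knockout (20.2 to 23.4 RPKM) overlapped that of the vector control (20.8 to 23.9). That of the exon 3 knockout (24.3 to 27.8 RPKM) overlapped that of the parental line (22.4 to 25.3). For Sesn2 both sides were therefore within counting error of a control. The log2 change was 0.04 (SE 0.305, limma adjusted p = 0.955). Of the members 2 (Cdkn1a and Sesn2) had this order.

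Of the 3 death genes, Bbc3 and Bax lay above and Pmaip1 below in both knockouts. Bbc3 (chr7:16308393-16318205, plus strand) encodes Puma, a BH3-only protein that releases Bax, and was listed at 9.96 RPKM in parental cells, 8.80 with vector alone, 16.0 after exon 3 editing and 13.4 after exon 2 editing. Both knockouts lay above both controls, with means of 14.7 ± 1.81 and 9.38 ± 0.822 RPKM (SD, n = 2 each). Its log2 change was 0.59 (SE 0.318, limma adjusted p = 0.329) and stayed at 0.48 after GC and length correction, with a coding GC content of 72.0%. Bax (chr7:45461697-45466898, minus strand), which permeabilises the outer mitochondrial membrane, was listed at 124 RPKM in parental cells, 207 with vector alone, 247 after exon 3 editing and 211 after exon 2 editing. The vector control was almost level with the exon 2 knockout, and their counting intervals (200.2 to 215 and 203 to 219 RPKM) overlapped. Its log2 change was 0.51 (SE 0.328, limma adjusted p = 0.411). It was 0.18 after GC and length correction, 0.14 without the parental line and 0.87 without the vector control. Pmaip1 (chr18:66458533-66465565, plus strand), which encodes the BH3-only protein Noxa, was listed at 0.718 RPKM in parental cells, 2.15 with vector alone, 0.683 after exon 3 editing and 0.571 after exon 2 editing. These values rest on 7, 17, 5 and 4 reads in that order, and the vector control alone stood high. The exact Poisson 95% interval ran from 0.289 to 1.48 RPKM in parental cells and from 0.155 to 1.46 after exon 2 editing. Its log2 change was -0.52 (SE 0.428, limma adjusted p = 0.523), and a difference was not detectable at this depth. The ratio of Bax to Bbc3 was 12.5 in parental cells, 23.6 with vector alone, 15.5 after exon 3 editing and 15.8 after exon 2 editing, so the knockouts lay between the controls.

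Single pairs of lines showed how far the members varied without the group contrast. Over all genes tested, the Pearson r of log2(RPKM + 1) was 0.929 between the controls and 0.965 between the knockouts. It was 0.914 to 0.940 between a knockout and a control, so the controls were no more alike than some pairs across groups. Between both control lines 0 of 10 members differed by 2-fold or more on RPKM + 1, where 8.53% of all genes did. On RPKM with nothing added 1 did, Pmaip1, where 11.9% of all genes did. Bax (log2 difference 0.74), Pmaip1 (0.87) and Mdm2 (0.61) were the widest of these. Between the exon 2 and exon 3 knockouts 1 member, Cdkn1a, differed by 2-fold or more on either scale, where 4.99% of all genes did on RPKM + 1 and 9.85% with nothing added. The log2 difference of Cdkn1a, exon 2 minus exon 3, was -1.25.

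**Figure D4:**
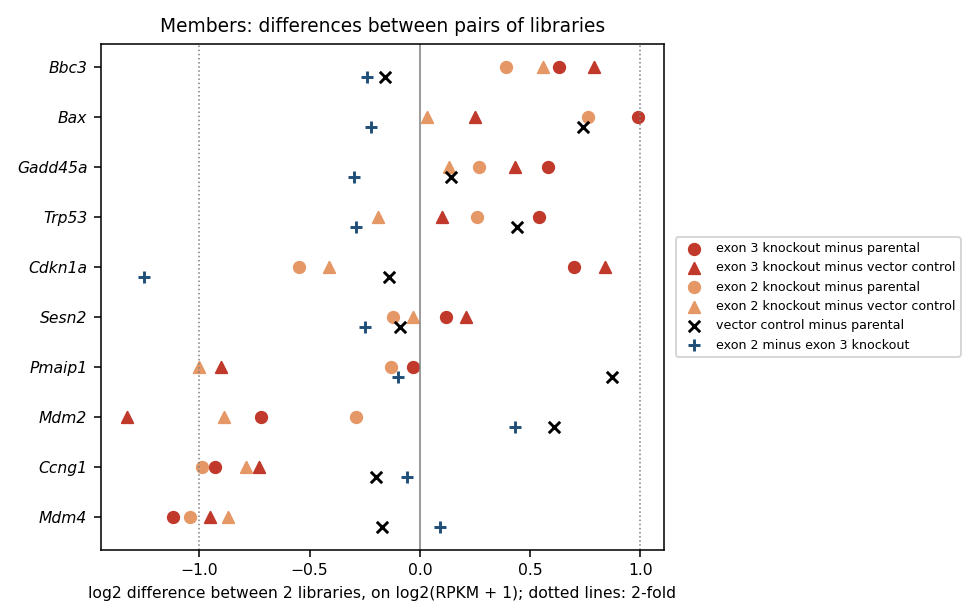
Log2 difference on log2(RPKM + 1) (x axis) of each member (y axis) between pairs of libraries; circles and triangles are the 4 knockout and control pairs, crosses the vector control minus the parental line, plus signs the exon 2 minus the exon 3 knockout. Cdkn1a has the widest spread between the knockouts, at -1.25.

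A list of 42 other p53 target genes, in 6 functional groups, held genes on both sides of 0. Of 39 that could be tested (Rprm, Gdf15 and Perp were below the filter), 0 passed an adjusted p of 0.05, and 3 were lower (Btg2, Trp53inp1 and Polk) and 0 higher at an unadjusted p under 0.05. Over all genes 13.8% were lower and 5.32% higher at that level. Both knockouts lay above both controls for 8 and below for 11, against 21.9% and 31.2% of all genes, and the groups overlapped for 20. The median log2 change was -0.10, against -0.08 over all genes tested, and it was 0.10 after GC and length correction. By function, the 5 DNA repair genes divided into 2 above and 3 below both controls, the 9 tested death genes into 2 above, 2 below and 5 overlapping, and the 7 tested metabolism, stress and autophagy genes into 2 above, 1 below and 4 overlapping. Of 5 feedback genes, 3 lay below both controls and 1 above. The largest smallest rises over the 4 pairs were in Gls2, a mitochondrial glutaminase (log2 change 0.70, limma adjusted p = 0.311), Aen, an apoptosis nuclease (0.51, adjusted p = 0.382), and Ei24 (0.37, adjusted p = 0.510). Gls2 was listed at 2.07 and 3.20 RPKM in the parental and vector control lines and at 4.95 and 4.70 in the exon 3 and exon 2 knockouts. At the other end were Btg2, an antiproliferative gene (log2 change -1.25, limma adjusted p = 0.138), Trp53inp1, a stress gene that assists p53 phosphorylation (-0.93, adjusted p = 0.195), and Dram1, an autophagy gene (-0.53, adjusted p = 0.408). Btg2 was listed at 17.7 and 23.0 RPKM in the parental and vector control lines and at 10.8 and 5.69 in the exon 3 and exon 2 knockouts. Both knockouts lay below both controls, and the log2 change was -1.60 after GC and length correction. Ppm1d, the phosphatase that switches off the p53 response, was listed at 17.0 RPKM in parental cells, 15.3 with vector alone, 14.7 after exon 3 editing and 11.6 after exon 2 editing, with a log2 change of -0.29 (SE 0.317, limma adjusted p = 0.636).

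The median change of the regulators of p53 was below 0 before GC correction and not after it. Of 18 listed genes 16 could be tested, and 0 passed an adjusted p of 0.05. At an unadjusted p under 0.05, 5 were lower (Atm, Huwe1, Crebbp, Ep300 and Kat2b) and 0 higher. Over all genes tested, 13.8% were lower and 5.32% higher at that level. Both knockouts lay below both controls for 9 and above for 4, against 31.2% and 21.9% of all genes. The 4 above include the ribosomal protein genes Rpl5 and Rpl11, whose values are uncertain. The median log2 change was -0.55, and 0.06 after GC and length correction. Of the 5 genes named above, Atm (0.17) and Huwe1 (0.08) were no longer below 0 after the correction, and Ep300 was at -0.46. Among 4 acetyltransferases and coactivators, which acetylate p53 or histones at its targets, 3 lay below in both knockouts and Kat5 above. Kat2b was listed at 9.86 RPKM in parental cells, 10.4 with vector alone, 3.47 after exon 3 editing and 3.21 after exon 2 editing. Of either list it alone was at least 2-fold lower in all 4 pairs on RPKM + 1, as were 1.73% of all genes. Its log2 change was -1.36 (SE 0.331, limma adjusted p = 0.105), and -1.02 after GC and length correction. Crebbp was listed at 8.65 RPKM in parental cells, 7.02 with vector alone, 2.76 after exon 3 editing and 4.45 after exon 2 editing, with a log2 change of -0.96 (SE 0.357, limma adjusted p = 0.194) and -0.53 after the correction. The study picked Crebbp and Kat2b from these libraries, so their direction is not independent evidence.

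Cdkn2a, whose locus encodes both the kinase inhibitor Ink4a and Arf, which sequesters Mdm2, was the most abundant gene of both lists. It was listed at 1022 RPKM in parental cells, 1033 with vector alone, 986 after exon 3 editing and 1153 after exon 2 editing, and the groups overlapped (log2 change 0.05, SE 0.297, limma adjusted p = 0.940). Its gene-level value does not separate Ink4a from Arf. The ratio of Cdkn2a to Trp53 was 10.2 in parental cells, 7.57 with vector alone, 6.73 after exon 3 editing and 9.63 after exon 2 editing. The family members were close to 0 and were not tested: Trp63 was listed at 0.131 to 0.243 RPKM, and Trp73 at 0 in 3 libraries and 0.0205 in the exon 3 knockout. Rpl5 and Rpl11, ribosomal proteins that bind Mdm2, have near-identical copies in the genome and their values are uncertain.

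**Figure D5:**
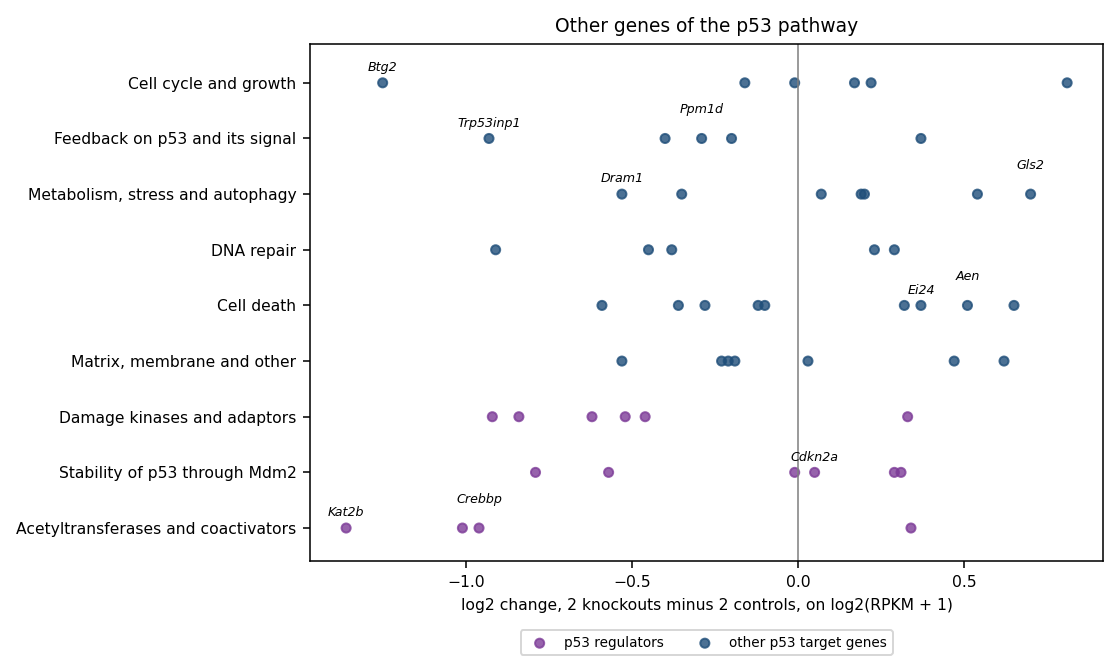
Log2 change (x axis, knockouts minus controls on log2(RPKM + 1)) of each tested gene of the other p53 target genes and the p53 regulators, 1 point per gene, by functional group (y axis). Kat2b (-1.36) and Btg2 (-1.25) lie furthest below 0.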

How the data were processed

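The authors deposited RPKM values for 4 libraries, 1 column each, on a linear scale. The submitters' processing notes name CASAVA 1.8, GSNAP and the GRCm38 build, and the labels name a stranded total RNA kit. The gene model and counting rule are not given in the sources used here. Columns were matched to libraries by the sample description, which holds the column name.

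Whole reads were recovered from the ratios of RPKM between libraries. All 10871 genes tested (100%) came out whole within 0.001 reads, and 58.3% had an annotated coding length (GENCODE M21), so RPKM scale with coding length. Totals were 31235456 (parental), 25396254 (vector control), 23474246 (exon 3 knockout) and 22472024 (exon 2 knockout). Intervals are exact Poisson 95% and cover counting error only.

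Groups came from the titles. The 2 knockouts were compared with the 2 controls by limma 3.58.1 (R 4.3.3) with an intensity trend on log2(RPKM + 1), without covariates, for genes with mean RPKM of at least 1, with Benjamini-Hochberg adjustment and a threshold of 0.05. A change on this scale understates that of low genes. The procedure was tested on simulated reads in which lines of 1 group had the same expected level of each gene. That simulation does not give the power of the test on these lines. Alternatives were a pseudocount of 0.1, median ratio scaling, quantile normalization, no filter, mean RPKM of at least 5, no trend, a robust prior, voom on recovered reads, a spline correction of each library for coding GC content and length, 3-fold in place of 2-fold, and leaving out each library. Tables were made with Python 3.11.15, pandas 2.3.3 and scipy 1.17.1.

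The members and lists were chosen with earlier results of these data known. Named were all members, S100a4, Cdkn2a, Ppm1d, Crebbp, Kat2b, Trp63 and Trp73, and from each other list the genes past the threshold, else those 2-fold apart in all 4 pairs, else the 3 largest rises and falls by the smallest change over the pairs. Any other gene named was chosen after its values were seen. The result of 1 listed gene under an alternative is not reported here.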

Additional observations from a re-analysis of the deposited data

Results flagged for a closer look

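The exon 3 and exon 2 knockouts lay on opposite sides of both controls for 2 of 10 members, and for 7.88% of all genes. For Cdkn1a the log2 ratio of the exon 3 over the exon 2 knockout was 1.25, with the exon 3 knockout at 81.8 RPKM, above the controls at 45.2 and 50, and the exon 2 knockout at 33.8, below them. For Sesn2 the same log2 ratio was 0.25, with 26.0 RPKM in the exon 3 knockout, 22.3 and 23.8 in the controls and 21.8 in the exon 2 knockout. The exon 2 value of Sesn2 was within counting error of the vector control, and its exon 3 value within counting error of the parental line. Neither difference between the knockouts was tested, since each rests on 1 library a side, and the exon 2 knockout also carries another cell name in its title.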

How the results depend on the processing

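Of 129 values of single members under the alternatives, 122 kept direction and side of the threshold, and the lowest adjusted p of any member was 0.0779 (Mdm2 without the parental line, limma). The direction of a member could not turn with no filter, a mean RPKM of at least 5, no trend or a robust prior. Those settings refit the same values. Signs turned for Trp53 (-0.04 to 0.40 leaving out a library), Cdkn1a (-0.23 with GC and length correction, -0.48 to 0.77 leaving out a library), Sesn2 (-0.15 with the correction, -0.0016 without the vector control, -0.08 to 0.17 leaving out a library) and Gadd45a (-0.0014 with the correction). The members' median was -0.19 with the correction and -0.28 to 0.25 leaving out a library. The median of the other targets was 0.09 with quantile normalization, 0.01 without a filter, 0.12 with the minimum mean RPKM at 5, 0.10 with the correction, -0.04 with median ratio scaling, -0.01 with voom, and -0.11 to 0.04 leaving out a library. That of the regulators was 0.06 with the correction and -0.88 to -0.28 leaving out a library. Members above both controls numbered 1 with the correction and 3 to 6 leaving out a library (6 without the exon 2 knockout). Of the other targets 0 to 2 passed the threshold leaving out a library (2 without the parental line, Btg2 among them), and of the regulators 0 to 1 (Ep300, without the vector control) and 1 with a robust prior (Kat2b). At 3-fold, 0 members differed between the knockouts. Without a pseudocount, chosen after seeing the data, 1 member was 2-fold apart in all pairs (Mdm4) and 1 between the controls (Pmaip1). Genes called over the whole table numbered 2, and 1 with a pseudocount of 0.1 or quantile normalization, 0 with median ratio scaling, without any filter, with voom or with the correction, 32 above the stricter minimum, 285 with a robust prior, and 3 to 788 leaving out a library. The median of all genes moved from -0.08 to 0.04 with quantile normalization and 0.05 with the correction. Where a group kept 1 library, it was assumed to vary like the other group. The causes were not tested. No paired analysis was possible because nothing in the labels matches a given knockout line to a given control line. Depth limits Pmaip1, at 4 to 17 reads.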

Other observations

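Perp, a membrane protein gene of the p53 response, and Gdf15, a secreted stress cytokine gene, were below the filter and entered no test. Both were chosen after their values were seen. Perp was listed at 0.055 RPKM in parental cells, 0 with vector alone, 0.293 after exon 3 editing and 3.13 after exon 2 editing. Gdf15 was listed at 0.281 RPKM in parental cells, 0.345 with vector alone, 0.981 after exon 3 editing and 0.0488 after exon 2 editing. Perp stood high in the exon 2 knockout alone, and Gdf15 was highest in the exon 3 knockout.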
